A study of Mus musculus with 8 samples.

Results

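Transcripts of 10 genes were followed: the vascular endothelial growth factor (VEGF) ligands Vegfa, Vegfb, Vegfc and Pgf, the fibroblast growth factor (FGF) ligand Fgf1 and the FGF-binding protein Fgfbp1, the platelet-derived growth factor (PDGF) chains Pdgfa and Pdgfb, and the neuropilin co-receptors Nrp1 and Nrp2. They were taken by gene symbol from the 45777 genes of the deposited count tables, where all 10 were found. VEGF, FGF and PDGF ligands are secreted proteins that bind receptor tyrosine kinases on neighbouring cells. In liver tumours, VEGF acts mainly on endothelial cells, PDGF on stellate cells and fibroblasts, and FGFs on both stroma and tumour epithelium. Neuropilins lack kinase activity and hold VEGF or class 3 semaphorins next to their signalling receptors.

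The libraries came from mouse tumour organoids, which are 3-dimensional epithelial cultures, established from hepatocellular carcinoma on a background of metabolic steatohepatitis. The resistant group comprised lenvatinib-resistant cultures of 2 lines, SNU-6624 and SNU-6625, the lenvatinib group comprised treated cultures of the same 2 lines, and the parental group comprised control cultures of these and of 2 further lines, SNU-6621 and SNU-6622. Each line gave 1 library per group, all were labelled with the WT genotype, and the resistant libraries carried the control treatment label, so that resistance and the absence of the drug cannot be told apart between resistant and lenvatinib libraries. Lenvatinib blocks KIT, RET and the kinase receptors to which the ligands described here bind, and the labels state neither its dose nor its duration. The labels do not say whether the libraries of a line were separate cultures, so p-values measure only the spread between these libraries.

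Each library held between 49.0 and 61.0 megacounts (M). Values are given as counts or as CPM, the count per megacount of the same library. The upper limit taken for a count of 0 was 3 counts, or 0.0492 to 0.0612 CPM, called the floor here. Some libraries stood apart before any comparison. The proliferation gene Mki67 had 1970 and 17 counts in the resistant libraries of line SNU-6624 and line SNU-6625, 84 and 105 counts in the lenvatinib libraries, and 2897 to 12767 counts in the parental libraries. Biliary epithelial markers such as Krt19 were present throughout: 7 of the 10 listed reached 10 CPM in all 8 libraries, and their summed level was 10844 to 12840 CPM in resistant, 3041 to 3443 CPM in lenvatinib and 7237 to 8642 CPM in parental libraries. The hepatocyte list summed to 110.0 to 120.9, 6.33 to 11.7 and 92.6 to 155 CPM in the same groups, with 5 of its 10 genes at or under 3 counts in every library. Most of this sum was 1 gene, the transcription factor Hnf4a. It had 109 and 121 CPM in resistant, 5.59 and 10.9 CPM in lenvatinib and 91.0 to 149 CPM in parental libraries. Endothelial, stellate or fibroblast, and macrophage markers were at or under 3 counts in every library for 8 of 14, 10 of 15 and 10 of 12 genes. The summed levels of these 3 lists in CPM were 5.21 to 8.07, 0.34 to 1.05 and 38.03 to 44.11 in resistant, 3.84 to 5.53, 0.23 to 0.46 and 31.7 to 47.8 in lenvatinib, and 7.36 to 18.9, 2.49 to 23.9 and 24.5 to 58.1 in parental libraries. Most of the macrophage sum was Cd68, with 23.97 to 57.26 CPM. The stellate gene Lrat, highest in SNU-6621 at 23.7 CPM, fell to 0 counts in both lenvatinib libraries. It had 164 and 59 counts in the parental libraries of the 2 lines (edgeR adjusted p = 0.0450). The only other tested gene of that list, Col1a1, was not called (28 and 54 counts in parental, 0 and 12 in lenvatinib libraries). Des went the other way, with 0 counts in the parental and 6 and 13 in the lenvatinib libraries. The macrophage gene Csf1r was higher in resistant (36 and 73 counts) than in lenvatinib libraries (3 and 4 counts, edgeR adjusted p = 0.0449). Cd68, the other tested macrophage gene, was not called, with 37.3 and 42.9 CPM in resistant and 47.8 and 31.6 CPM in lenvatinib libraries. The part of these markers in the results below was not tested. In bulk libraries, fewer cells of a kind and less RNA per cell cannot be told apart.

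By the RefSeq annotation of build GRCm38.p6, the VEGF ligand genes lie at chr17:46016993-46032377 (Vegfa), chr19:6982472-6987651 (Vegfb), chr8:54077532-54186454 (Vegfc) and chr12:85166637-85177785 (Pgf). Fgfbp1 lies at chr5:43978858-43981828. The PDGF chain genes lie at chr5:138976014-139000792 (Pdgfa) and chr15:79995865-80024614 (Pdgfb), and the neuropilins at chr8:128358591-128505476 (Nrp1) and chr1:62703317-62818692 (Nrp2). The files give 1 count per gene, so the values below do not tell isoforms apart. Vegfa and Fgfbp1 were the members whose lenvatinib libraries lay outside the range of all 6 other libraries, and the DNA around their start sites is therefore shown, 250 bases before the start in the promoter table and 30 bases from it (RefSeq, build GRCm38.p6, read 5′ to 3′ on the minus strand, on which both genes lie). In the Vegfa window (chr17:46032348-46032627) capitals mark 2 GGGCGG hexamers, known as GC boxes, whose first bases lie 72 and 62 bases before the start. In the Fgfbp1 window (chr5:43981770-43982049) capitals mark a TATAAA hexamer, the core of a TATA box, which begins 3 bases downstream of the start used. That start, 43981799, is the one in the RefSeq promoter table and lies inside the gene interval given above, whose 5′ end is at 43981828, so the window holds bases downstream of the outermost annotated start.
Vegfa: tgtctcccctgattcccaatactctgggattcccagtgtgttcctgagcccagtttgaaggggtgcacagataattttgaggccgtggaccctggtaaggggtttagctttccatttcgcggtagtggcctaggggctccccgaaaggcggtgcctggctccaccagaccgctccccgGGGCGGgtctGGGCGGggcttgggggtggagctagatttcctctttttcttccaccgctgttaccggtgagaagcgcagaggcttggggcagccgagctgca
Fgfbp1: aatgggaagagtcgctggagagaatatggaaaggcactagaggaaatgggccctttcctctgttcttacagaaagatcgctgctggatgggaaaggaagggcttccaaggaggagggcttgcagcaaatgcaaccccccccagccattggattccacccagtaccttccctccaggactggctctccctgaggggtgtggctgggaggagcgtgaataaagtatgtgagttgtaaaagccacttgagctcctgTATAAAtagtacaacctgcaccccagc
The 2 windows differed in these letters: GGGCGG was not in the Fgfbp1 window and TATAAA was not in the Vegfa window. Of 32851 promoter windows of the same length, 34.7% held GGGCGG and 13.1% held TATAAA on either strand. Windows were found for 8 of the 10 members, and GGGCGG was in 7 of these 8, in all but that of Fgfbp1. The core of the hypoxia response element, ACGTG, and the AP-1 motif TGANTCA were in none of the 8 windows, against 18.5% and 7.46% of all windows; none of the 4 motifs contains another. These are matches of letters in short windows and say nothing about binding.

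Levels between genes were compared in the parental libraries per length, as CPM per kilobase (kb) of annotated exon. Vegfa, the main ligand for endothelial growth and permeability, was highest at 118 ± 11.3 CPM per kb (SD, n = 4 lines), and it ranked between 271 and 373 among 22248 genes with a known length. Fgfbp1, which releases FGFs from the extracellular matrix, followed at 90.8 ± 37.7 CPM per kb. The spreads of these 2 neighbours overlapped, although Vegfa was above Fgfbp1 in each of the 4 lines. Pdgfa, below Fgfbp1 in each of the 4 lines, averaged 22.0 ± 7.03, Nrp2 12.9 ± 7.24 and Vegfb 10.2 ± 1.32 CPM per kb, and the spreads of neighbours among these 3 overlapped, although Pdgfa was above Nrp2 in each of the 4 lines. Nrp1 (5.07 ± 6.45), Pdgfb (4.94 ± 0.852) and Fgf1 (3.07 ± 1.67 CPM per kb) came next with overlapping spreads, Pdgfb above Fgf1 in each of the 4 lines. Pgf averaged 0.249 CPM per kb. Vegfc, the ligand of lymphatic growth, had 7 counts in parental SNU-6622 (0.12 CPM, 95% Poisson interval 0.0481 to 0.246 CPM) and 0 in the other 7 libraries, which allows up to the floor given above. Among the VEGF ligands Vegfa therefore made up most of the transcripts per length, 91.3% and 96.3% in resistant, 99.3% and 98.7% in lenvatinib and 89.2% to 93.5% in parental libraries.

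**Figure D1:**
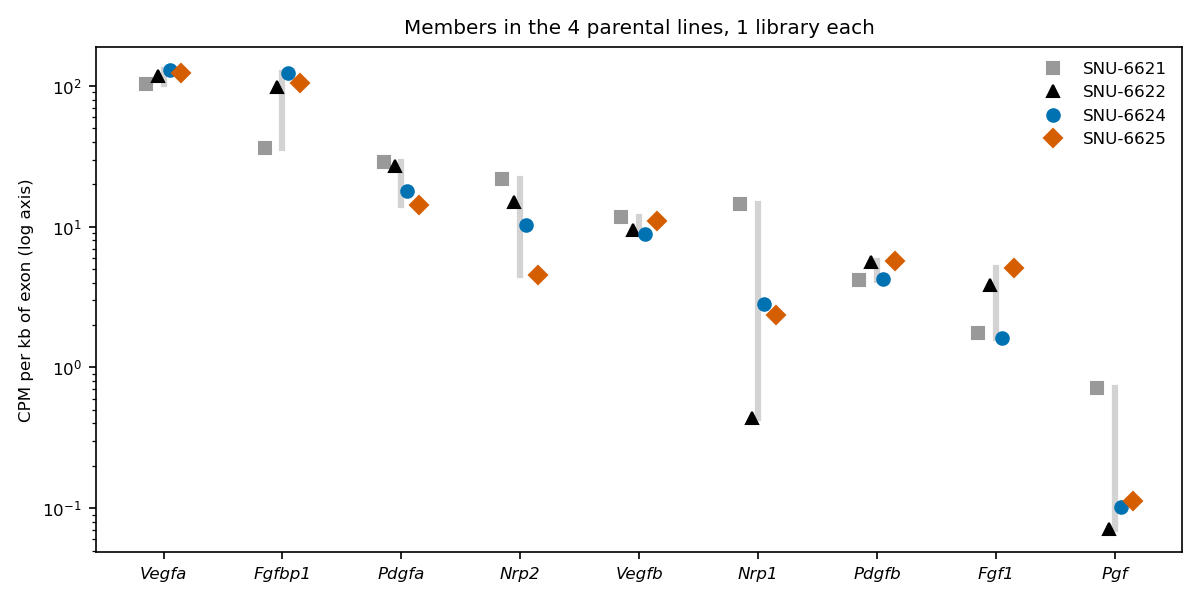
Level of each member in the 4 parental lines, in CPM per kb of exon on a log axis, 1 library per line (points) with grey bars from lowest to highest line. Vegfa varied least between lines (1.26-fold) and Nrp1 most (33.5-fold); Vegfc, at 0 in 3 lines, is not drawn.

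The parental lines differed far more in co-receptors than in the main ligand. In rising order of line number, the parental lines had 442, 501, 557 and 527 CPM of Vegfa, a highest-to-lowest ratio of 1.26, and Vegfb (1.32) and Pdgfb (1.37) were similarly even. Nrp1, a co-receptor for VEGF-A and semaphorin 3A, had 143, 4.27, 27.8 and 23.2 CPM in the same order, a ratio of 33.5. Its 95% Poisson intervals ran from 139.8 to 146 CPM in SNU-6621 and from 3.76 to 4.83 CPM in SNU-6622, so that counting error was small beside the difference. Nrp2 was also highest in SNU-6621, with 257, 176, 122 and 53.9 CPM in the 4 lines, and lowest in SNU-6625. In SNU-6622 Nrp2 made up 97.2% of the 2 neuropilins per length, against 59.7% in SNU-6621. Placental growth factor, encoded by Pgf, reached 2.06 CPM in SNU-6621 (108 counts) and 0.205 to 0.326 CPM in the other lines. Fgfbp1 went the other way: SNU-6621 was lowest, at 82.5 CPM, while the other lines had 223, 279 and 238 CPM. Fgf1, which binds every FGF receptor, was split between SNU-6622 and SNU-6625, with 20.9 and 27.6 CPM, and SNU-6621 and SNU-6624, with 9.54 and 8.86 CPM. With 1 library per line, line and library cannot be told apart.

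Vegfa was highest after lenvatinib and lowest in resistant cultures of both lines. It had 344 and 253 CPM in the resistant libraries of line SNU-6624 and line SNU-6625, 806 and 744 CPM in the lenvatinib libraries, and 557 and 527 CPM in the parental libraries of these lines. Both lenvatinib libraries lay above, and both resistant libraries below, every other library, parental SNU-6621 and SNU-6622 included. Resistant against lenvatinib, Vegfa fell 2.34-fold (log2 fold change -1.22, SE 0.20, adjusted p = 0.0450, edgeR quasi-likelihood test with Benjamini-Hochberg adjustment), one of 2 members called, where 6.23% of the 17038 tested genes were called and 2.08% were called lower. In lenvatinib against parental libraries its log2 fold change was 0.43 (SE 0.19, adjusted p = 0.205), and in resistant against parental libraries it was -0.79 (SE 0.19, adjusted p = 0.248), neither called. The 3 comparisons share libraries and are not independent of one another. The call in resistant against lenvatinib libraries ended without lenvatinib SNU-6624 (adjusted p = 0.341), lenvatinib SNU-6625 (0.357), parental SNU-6624 (0.177) or parental SNU-6625 (0.172), with log2 fold changes of -1.39 to -1.18 over all 19 settings. It also ended when only the 4 libraries compared were fitted (adjusted p = 0.154) and without a filter on low counts (0.063).

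**Figure D2:**
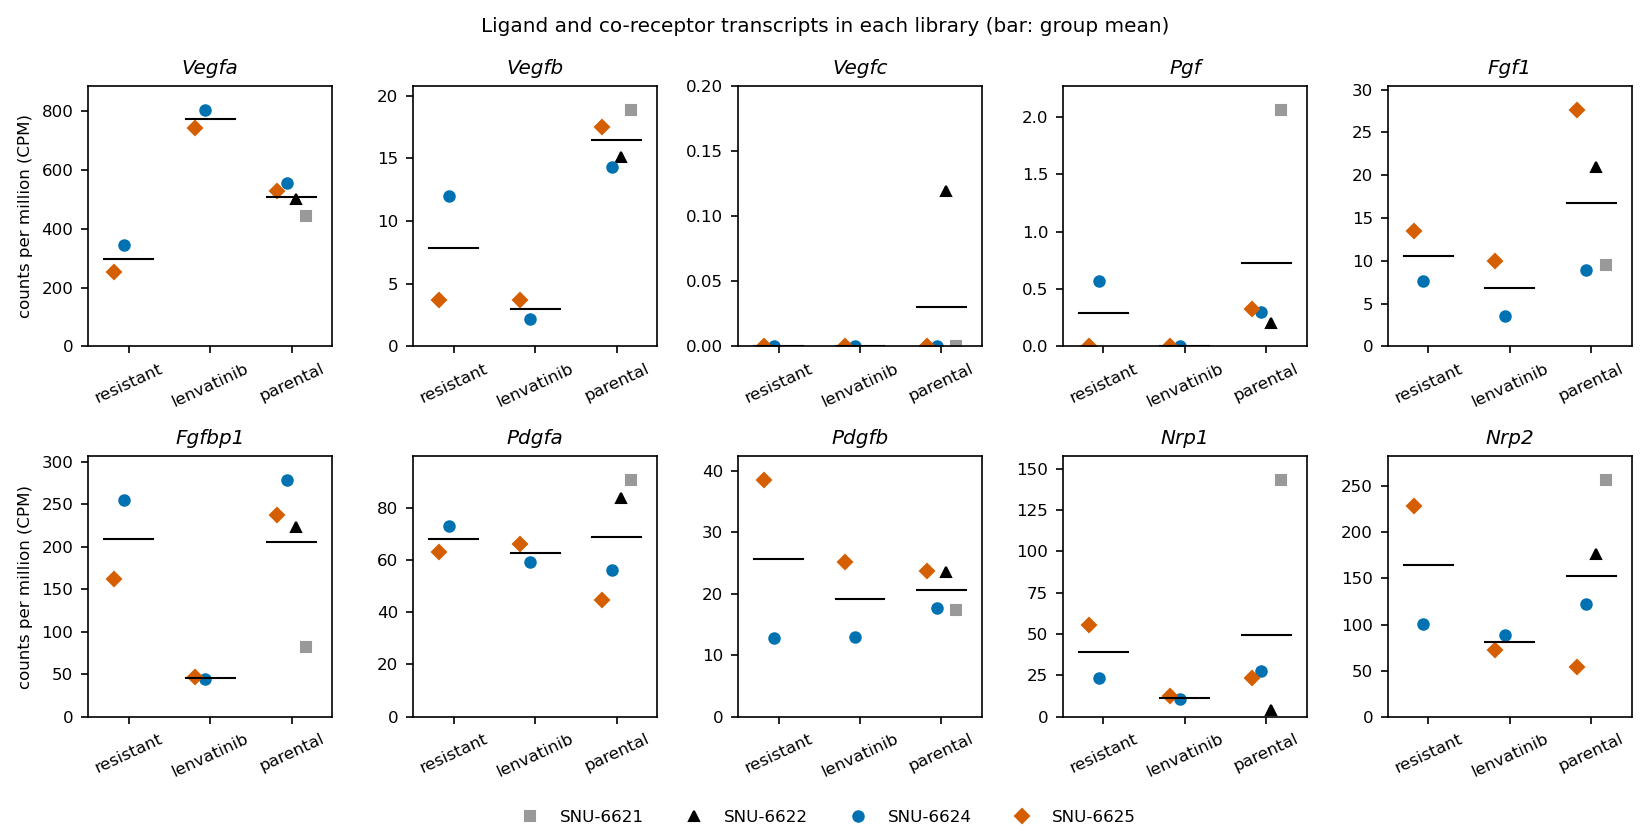
CPM of each of the 10 members in the resistant, lenvatinib and parental libraries (1 point per library, coloured by line; bar, group mean; each panel has its own linear axis from 0). Vegfa is highest in the 2 lenvatinib libraries (806 and 744 CPM) and Fgfbp1 lowest there (45.1 and 46.8 CPM).

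Vegfb, a ligand of the receptor Flt1 with little angiogenic activity of its own, was highest in parental libraries. It had 12.0 and 3.65 CPM in the resistant libraries of line SNU-6624 and line SNU-6625, 2.21 and 3.66 CPM in the lenvatinib libraries, and 14.3 to 18.9 CPM in the 4 parental libraries. All 4 parental libraries lay above all others, but resistant SNU-6624 was close to them while resistant SNU-6625 was at the level of its lenvatinib library. The log2 fold change of lenvatinib against parental libraries was -2.51 (SE 0.61), with an edgeR adjusted p of 0.0806 that missed the threshold, although the ratio was 6.46-fold lower in SNU-6624 and 4.78-fold lower in SNU-6625. For resistant against parental libraries the log2 ratio was -0.25 in SNU-6624 and -2.26 in SNU-6625 (fitted -1.04, SE 0.60, adjusted p = 0.435). Expressed per length, Vegfb made up 8.51% and 3.72% of the VEGF ligands in resistant, 0.73% and 1.30% in lenvatinib and 6.40% to 10.2% in parental libraries.

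Pgf, also a ligand of Flt1, was near the floor outside SNU-6621. It had 29 and 0 counts in the resistant libraries of line SNU-6624 and line SNU-6625, 0 counts in both lenvatinib libraries, and 18 and 16 counts in the parental libraries of these lines. With 3 counts taken for a 0 and the parental count taken as exact, the level was at least 5.62-fold lower in lenvatinib SNU-6624, 5.92-fold lower in lenvatinib SNU-6625 and 6.64-fold lower in resistant SNU-6625 than in the parental library of the line. With the counting error of both libraries, the 95% intervals of these log2 ratios reached up to -2.04, -2.10 and -2.26. By contrast, resistant SNU-6624 had 1.93 times the CPM of its parental library (95% interval of the log2 ratio 0.048 to 1.88). Pgf was called in none of the 3 comparisons (adjusted p = 0.192, 0.772 and 0.263 for lenvatinib against parental, resistant against parental and resistant against lenvatinib, edgeR).

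Fgfbp1 had the lowest adjusted p of the members in the 2 comparisons that involve lenvatinib. Its level was 255 and 163 CPM in the resistant libraries of line SNU-6624 and line SNU-6625, 45.1 and 46.8 CPM in the lenvatinib libraries, and 279 and 238 CPM in the parental libraries. Both lenvatinib libraries lay below all 6 others, the next being parental SNU-6621 at 82.5 CPM, and the means of resistant and parental libraries of the 2 lines were 209 ± 65.2 and 258 ± 29.0 CPM (SD, n = 2 each). Fgfbp1 fell 5.91-fold in lenvatinib against parental libraries (log2 fold change -2.56, SE 0.19, edgeR adjusted p = 0.0275), one of 2 members called, where 5.78% of all tested genes were called, 1.7% higher and 4.08% lower. It was 4.99-fold higher in resistant than in lenvatinib libraries (log2 fold change 2.32, SE 0.19, adjusted p = 0.0231), where 4.14% of tested genes were called higher. In resistant against parental libraries its log2 fold change was -0.25 (SE 0.18, adjusted p = 0.507). Each call held in 15 of 19 settings, with log2 fold changes of -2.76 to -2.25 and of 2.15 to 2.51. The exceptions were the fits without lenvatinib SNU-6624 (adjusted p = 0.253 for lenvatinib against parental and 0.230 for resistant against lenvatinib), lenvatinib SNU-6625 (0.212 and 0.195), parental SNU-6624 (0.118 and 0.067) and parental SNU-6625 (0.162 and 0.063). The lenvatinib libraries were also those with the lowest summed biliary markers, 3041 to 3443 CPM. They had 84 and 105 Mki67 counts, but the lowest Mki67 count, 17, was in resistant SNU-6625, which had 163 CPM of Fgfbp1. The part of biliary markers or Mki67 in these values was not tested. By rank per length, Fgfbp1 was the 354th and 590th gene in resistant, the 2593rd and 2502nd in lenvatinib and the 287th to 1177th in parental libraries.

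Fgf1 (chr18:38838672-38929470, minus strand) followed the same order of groups at a much lower level. Lines SNU-6624 and SNU-6625 had 384 and 822 counts in resistant, 200 and 544 counts in lenvatinib and 535 and 1355 counts in parental libraries. The group means were 10.5 ± 4.15, 6.77 ± 4.57 and 18.3 ± 13.3 CPM in that order (SD, n = 2 each), so that the groups overlapped while each line kept the order parental, resistant, lenvatinib from high to low. Fgf1 was the other member called in lenvatinib against parental libraries, where it fell 2.79-fold (log2 fold change -1.48, SE 0.25, edgeR adjusted p = 0.04998), only just past the threshold. The log2 ratio was -1.32 in SNU-6624 and -1.47 in SNU-6625. This call held in 11 of 19 settings with log2 fold changes of -1.67 to -1.28, and ended without line as a term (adjusted p = 0.238), with all 8 libraries (0.189), with scaling by library size only (0.068), without a filter on low counts (0.070) and without lenvatinib SNU-6624 (0.390), lenvatinib SNU-6625 (0.291), parental SNU-6624 (0.207) or parental SNU-6625 (0.412). In resistant against lenvatinib libraries the log2 fold change was 0.94 (SE 0.25, adjusted p = 0.0915), and in resistant against parental libraries -0.54 (SE 0.25, adjusted p = 0.361). The pair that the 2 genes form, a ligand and the protein that mobilises it, was thus lower in both lenvatinib libraries than in the parental library of the same line.

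Neither PDGF chain was called by edgeR in the 3 comparisons. Pdgfa, whose product acts on the PDGF alpha receptor, had 73.0 and 63.0 CPM in the resistant libraries of line SNU-6624 and line SNU-6625. It had 59.3 and 65.9 CPM in the lenvatinib libraries and 56.1 and 44.6 CPM in the parental libraries of these lines. Over all 4 parental libraries it ran from 44.6 to 90.5 CPM. Within SNU-6624 and SNU-6625 the log2 ratio of Pdgfa was 0.38 and 0.50 in resistant against parental libraries. In lenvatinib against parental libraries it was 0.08 and 0.56. Its log2 fold changes were 0.24 (SE 0.17, adjusted p = 0.385) in lenvatinib against parental, 0.52 (SE 0.17, adjusted p = 0.282) in resistant against parental and 0.28 (SE 0.17, adjusted p = 0.324) in resistant against lenvatinib libraries by edgeR. The exons of Pdgfa share 813 bases with an annotated gene on the opposite strand, and since the strand setting of the counting is not stated, part of its counts is uncertain. Pdgfb, whose product acts on both PDGF receptors and recruits pericytes, had 12.8 and 38.5 CPM in resistant, 13.0 and 25.2 CPM in lenvatinib and 17.6 and 23.7 CPM in parental libraries of the 2 lines. The lines differed in direction: the resistant library was below its parental library in SNU-6624 (log2 ratio -0.47) and above it in SNU-6625 (0.70). None of its 3 adjusted p-values was under 0.411.

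Both neuropilins were above the parental level in the resistant library of SNU-6625 and below it in that of SNU-6624, a difference between lines that was not tested. Nrp1 had 23.4 and 55.5 CPM in the resistant libraries of line SNU-6624 and line SNU-6625, 10.6 and 12.3 CPM in the lenvatinib libraries, and 27.8 and 23.2 CPM in the parental libraries. Nrp2, a co-receptor for VEGF-C and semaphorin 3F, had 100.2 and 229 CPM in resistant, 88.8 and 72.6 CPM in lenvatinib and 122 and 53.9 CPM in parental libraries. Resistant SNU-6625 thus had 2.39 times the Nrp1 and 4.25 times the Nrp2 of its parental library, while resistant SNU-6624 had 0.840 and 0.818 times that of its own. Resistant SNU-6625 is the library with 17 Mki67 counts; the part of that library's state in these values was not tested, and without it the fitted log2 fold changes of resistant against parental were -0.18 for Nrp1 and -0.12 for Nrp2, against 0.64 (SE 0.46, adjusted p = 0.504) and 1.06 (SE 0.67, adjusted p = 0.460) with it. Both lenvatinib libraries had less Nrp1 than every other library except parental SNU-6622, which had 4.27 CPM. The log2 fold change of Nrp1 was -1.28 (SE 0.46, adjusted p = 0.146) in lenvatinib against parental libraries and 1.91 (SE 0.47, adjusted p = 0.0807) in resistant against lenvatinib libraries. For Nrp2 these were -0.20 (SE 0.63, adjusted p = 0.850) and 1.26 (SE 0.66, adjusted p = 0.273). An annotated microRNA on the same strand shares 80 bases with the exons of Nrp1.

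**Figure D3:**
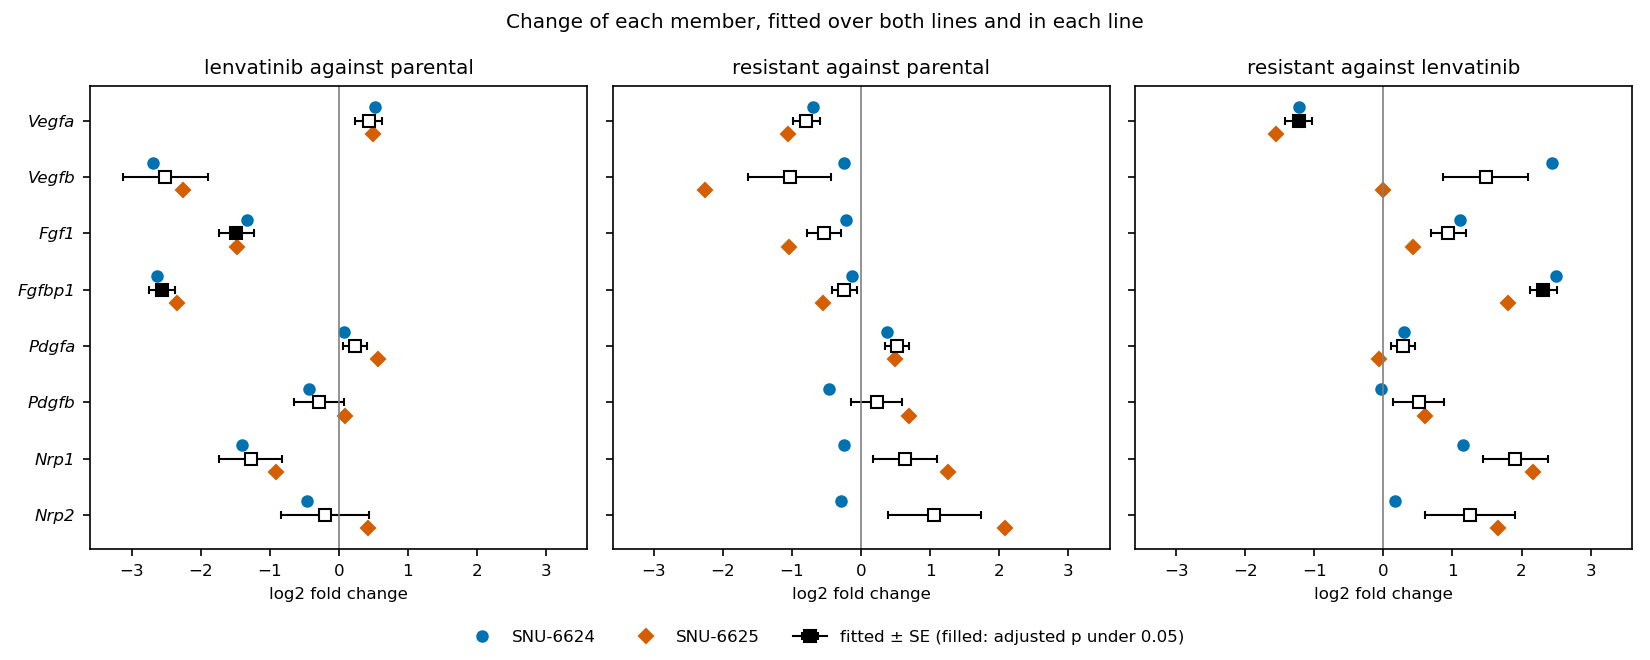
Log2 fold change of 8 members in the 3 comparisons: squares, the edgeR value fitted over both lines ± SE (filled where the adjusted p was under 0.05); circles and diamonds, the log2 ratio of CPM within line SNU-6624 and within line SNU-6625. The filled squares are Fgf1 (-1.48) and Fgfbp1 (-2.56) in lenvatinib against parental and Vegfa (-1.22) and Fgfbp1 (2.32) in resistant against lenvatinib; Pgf and Vegfc, with groups at 0, are left out.

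In resistant against parental libraries 0 of the 9 tested members and 0% of the 17038 tested genes were called by edgeR, with 2715 genes at an unadjusted p under 0.05. DESeq2 called 6.48% of the genes and, of the members, Vegfa alone, and limma called none. In the other comparisons DESeq2 called 4 of 9 members each, Vegfb, Fgf1, Fgfbp1 and Nrp1 in lenvatinib against parental (21.4% of all genes) and Vegfa, Fgf1, Fgfbp1 and Nrp1 in resistant against lenvatinib libraries (20.8%). Vegfc was removed by the filter on low counts and was tested in no comparison. The 9 tested members had a median log2 fold change of -1.28 in lenvatinib against parental, -0.25 in resistant against parental and 1.26 in resistant against lenvatinib libraries, beside -0.01, -0.01 and 0.02 over all tested genes. These medians hold genes that were not called and are given as a description. Scaling by library size alone gave the same directions for the called members; over all genes it changed the calls in lenvatinib against parental to 427 higher and 556 lower, beside 289 and 696 with TMM scaling, and in resistant against lenvatinib to 596 higher and 663 lower, beside 706 and 355.

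Other genes of these pathways came from lists that were likewise chosen with earlier results of the data known. Of 20 other VEGF, FGF and PDGF ligands, 10 had at most 3 counts in every library and 9 were tested. Pdgfc, another ligand of the PDGF alpha receptor, was the ligand called: it had 10.7 and 9.49 CPM in resistant, 0.76 and 1.62 CPM in lenvatinib and 11.3 and 14.4 CPM in parental libraries of SNU-6624 and SNU-6625. It fell in lenvatinib against parental (log2 fold change -3.57, edgeR adjusted p = 0.0356) and was higher in resistant than in lenvatinib libraries (3.33, adjusted p = 0.0316). Without either lenvatinib library edgeR called 0 genes of the whole table in either comparison (2099 to 2750 at an unadjusted p under 0.05), and without either parental library 0 in lenvatinib against parental (2206 to 2859), so these calls and those of the lists below ended there. The other 8 tested ligands were not called, and the list had medians of -1.30 and 0.88 in these comparisons.

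Receptors were scarce. Of 12 measured, 3 (Kdr, Pdgfrb and the co-receptor Kl) had at most 3 counts in every library, no receptor reached 10 CPM in all 8, and 0 of 6 tested were called in any comparison. Over all tested genes 5.78% were called in lenvatinib against parental, 0% in resistant against parental and 6.23% in resistant against lenvatinib libraries. Their summed level was 15.8 and 16.6 CPM in resistant, 23.0 and 28.1 CPM in lenvatinib and 11.3 to 126 CPM in parental libraries. The top of that range was SNU-6621, the line with the highest Nrp1, Nrp2 and Pgf. Named after their values were seen, Flt1 had 39.8 CPM and Fgfr2 32.7 CPM in that library, whereas in the other 7 libraries Flt1 had at most 3.38 CPM and Fgfr2 at most 0.35 CPM. In those 7 libraries most of the summed level was 1 gene, Fgfrl1, also named after its values were seen. In SNU-6624 and SNU-6625 it had 11.1 and 9.29 CPM in resistant, 23.2 and 17.5 CPM in lenvatinib and 15.5 and 11.8 CPM in parental libraries. The sums of these lines thus mostly followed Fgfrl1 and do not give the level of the other receptors.

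Of 20 tested co-receptors and modulators, 4 fell in lenvatinib against parental libraries and 5 were higher in resistant than in lenvatinib libraries, where 4.08% and 4.14% of all tested genes were called in these directions. Flrt3, a membrane protein that binds FGF receptors, had 204 and 164 CPM in resistant, 16.6 and 22.5 CPM in lenvatinib and 109 and 105 CPM in parental libraries of SNU-6624 and SNU-6625 (log2 fold changes -2.55, adjusted p = 0.0287, and 3.41, adjusted p = 0.0174, in these 2 comparisons by edgeR). The heparan sulfate proteoglycans Sdc3 (-3.69 and 2.48) and Hspg2 (-1.32 and 1.56), which bind growth factors at the cell surface and in the basement membrane, and the semaphorin receptor Plxna2 (-1.15 and 1.13) moved likewise on the log2 scale, with adjusted p-values of 0.0356 to 0.0467. The fifth gene higher in resistant libraries was Sulf2, which trims heparan sulfate (1.12, adjusted p = 0.0474). The medians of this list were -0.03 and 0.44. Class 3 semaphorins, which compete for neuropilins, had Sema3b called in both comparisons (-3.26, adjusted p = 0.0329, and 2.09, adjusted p = 0.0393) and Sema3c in resistant against lenvatinib libraries (1.89, adjusted p = 0.0478), out of 6 tested. Ligand-processing enzymes had 0 of 8 called after lenvatinib, and Plau (2.93, adjusted p = 0.0365) and Mmp14 (1.72, adjusted p = 0.0410), proteases that release matrix-bound factors, were higher in resistant than in lenvatinib libraries. Biliary markers moved in the same directions: 3 of 10 fell in lenvatinib against parental and 4 were higher in resistant than in lenvatinib libraries, and their part in the values above was not tested.

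Genes of hypoxia sensing and response, a list of 20 with 19 at 10 CPM or more in all 8 libraries, had 0 called in each of the 3 comparisons. Over all tested genes 5.78% were called in lenvatinib against parental, 0% in resistant against parental and 6.23% in resistant against lenvatinib libraries. A list of 20 is too short to tell 0 from these shares. Their log2 fold changes went both ways, from -1.58 to 1.22 with a median of -0.11 in lenvatinib against parental, from -0.93 to 0.52 with a median of -0.32 in resistant against parental and from -0.87 to 0.90 with a median of -0.01 in resistant against lenvatinib libraries. Vegfa is itself a hypoxia target and is not in this list.

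**Figure D4:**
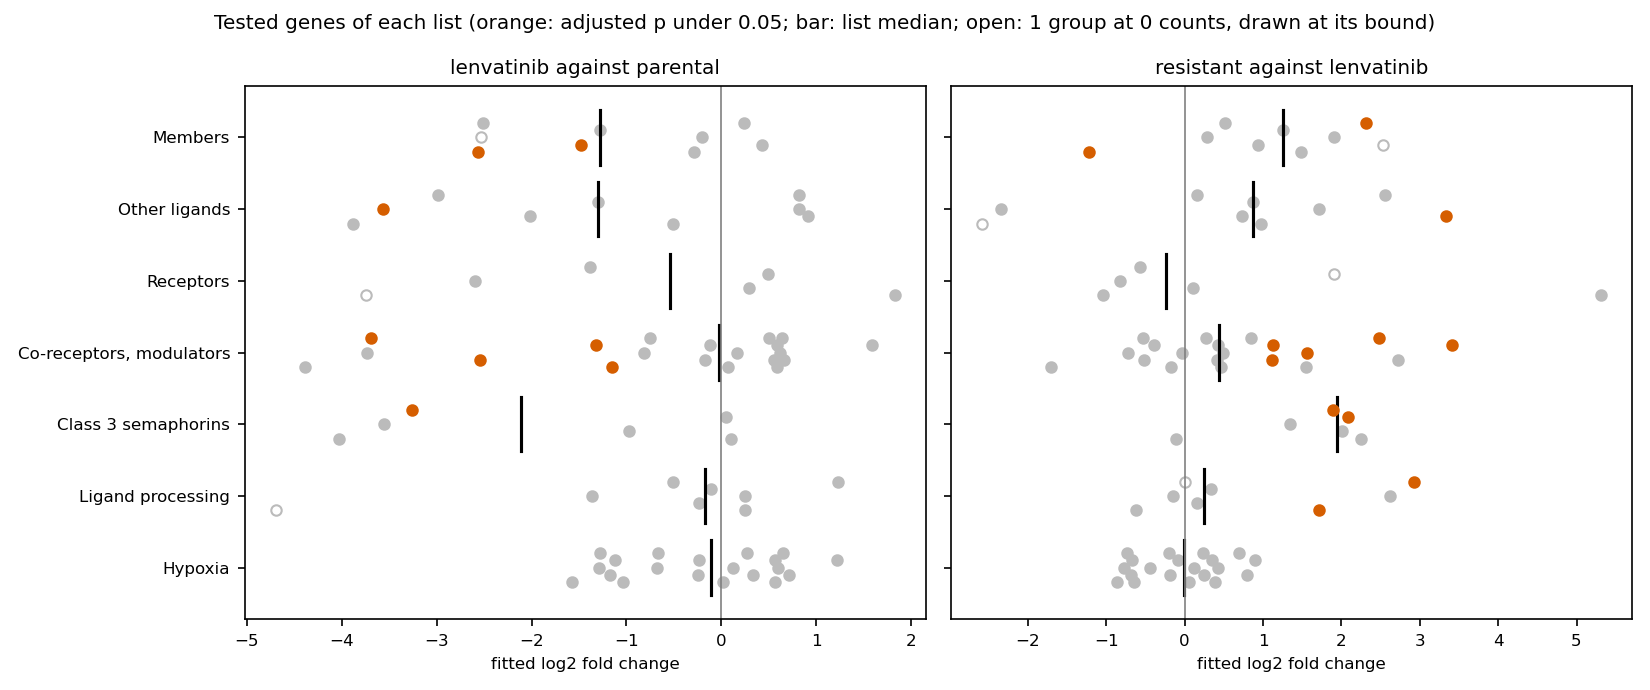
Fitted log2 fold change of every tested gene of 7 lists, in lenvatinib against parental and in resistant against lenvatinib libraries (orange, adjusted p under 0.05; bar, list median; open circles, genes with 0 counts in 1 group, drawn at the bound that 3 counts per library give). Called genes lie below 0 in the first panel and, except Vegfa at -1.22, above 0 in the second, while none of the 20 hypoxia genes was called.

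The genes whose levels across the 8 libraries were most like each member were ranked over 13794 genes by Pearson correlation of log2 CPM. Among the nearest to Fgfbp1 were Msmo1 (r = 0.989), an enzyme of cholesterol synthesis, and the glycolytic enzyme Eno1 (0.988). Vegfa was nearest to Tmem101 (0.996), Coq5 (0.992) and Riox1 (0.990), and Vegfb to Slc5a9 (0.990), Ankrd37 (0.987) and Clrn3 (0.984). Fgf1 was nearest to Chkb (0.978), Cep112 (0.974) and Cd38 (0.970), and among the nearest to Nrp2 were Spn (0.989) and Chd4 (0.942). Nrp1 was nearest to Cdkn2a (0.970), Notch1 (0.958) and Gramd1b (0.949). Pdgfb was nearest to Ubxn6 (0.952), Faah (0.948) and Vars (0.947), and Pdgfa had the loosest matches, Ntn1 (0.922), Rnf113a2 (0.919) and Ramp1 (0.917). These values describe 8 libraries that share lines and groups, and each named gene is the pick of 13794.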

How the data were processed

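Poly(A) RNA-seq of 8 mouse organoid libraries was analysed. Per the labels' protocols, RNA isolated with Trizol and a column kit was made into stranded mRNA libraries. The deposited files hold whole-number read counts per gene, made by the authors from their alignments. Per the submitters' processing notes, the genome build was mm10 and the tools included the aligners Bowtie2 2.3.4.1 and HISAT2 2.1.0, with StringTie 2.1.3b, Trimmomatic 0.38 and FastQC 0.11.7; how the counts were made, and with which strand setting, is not given in the sources used here. Gene identifiers matched the RefSeq table of GRCm38.p6 for 45679 of 45777 genes, and exon lengths, found for 22248 genes, are unions of GENCODE exons.

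CPM is the count divided by the library total. Counts of the 6 libraries from lines SNU-6624 and SNU-6625 were tested with edgeR 4.0.16 (quasi-likelihood F test, R 4.3.3) in a model of group plus line. Scaling was by TMM, and filterByExpr left 17038 genes. P-values were adjusted over all of these by the Benjamini-Hochberg method, and genes under 0.05 are called. One estimate of the spread served all groups (biological coefficient of variation 0.336, 2 residual and 2.53 prior degrees of freedom). SE was obtained as log2 fold change over the root of F. Libraries of a line come from the same culture line, and their deviations from group means correlated at 0.612 (lenvatinib with parental), 0.291 (resistant with parental) and 0.293 (resistant with lenvatinib) over 13943 genes, so line was kept as a block. No 2 libraries held identical values. Parental lines and within-line ratios were given without a test, with 95% Poisson intervals, which, like the floor of 3 counts, cover counting error only.

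Other settings tried were leaving line out of the model, using all 8 libraries or only the 4 compared, DESeq2 1.42.0, limma 3.58.1 (voom, and trend on log2(CPM + 1)), RLE or no scaling, a filter at 1 CPM or none, removal of genes above 1% of counts, and omission of each of the 6 libraries; the method of newer edgeR versions was added after seeing the data. The steps were tested on simulated data. The members, the gene lists and the alternatives were chosen with earlier results of these data known. All members are named; genes of other lists are named if called, up to 4 per list and comparison by size, and 3 like genes per member with at least 10 CPM in 1 library, predicted genes left out; 2 of these like genes are not reported here.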

Additional observations from a re-analysis of the deposited data

Results flagged for a closer look

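In a group of 4 libraries, a value was marked where its gap to the next value took up a share of the whole range above Dixon's 95% critical value, which chance does in about 1 in 20 groups. The 10 members and 12 genes of other lists (those called in a comparison, Flt1 and Fgfr2) were examined in the 4 parental lines, which marked 3 members and 4 of the other genes. Flt1 and Fgfr2 were picked after their values in SNU-6621 were seen, so the rate of 1 in 20 does not apply to their marks. For Vegfc the gap was the whole range (1.0), since SNU-6622 alone had counts, 7 of them. SNU-6621 was the high library for the others, with a gap of 0.935 of the range for Pgf (108 counts, against 12 to 18 in the other lines), 0.830 for Nrp1 (143 CPM, against 4.27 to 27.8 CPM), 0.865 for Sema3c (519 CPM, against 217 to 258 CPM), 0.934 for Plau (330 CPM, against 16.4 to 37.2 CPM), 0.997 for Flt1 (39.8 CPM, against 0.082 to 0.20 CPM) and 0.989 for Fgfr2 (32.7 CPM, against 0 to 0.35 CPM). These share 1 library and are not independent signs.

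Lines SNU-6625 and SNU-6624 moved in opposite directions for 5 members, counted where the 95% counting intervals of the 2 lines excluded 0 on opposite sides, and none of these differences was tested. Members whose interval included 0 in a line, such as Vegfb (-0.0021 in SNU-6625 in resistant against lenvatinib libraries), were not counted. In lenvatinib against parental libraries the log2 ratio of Nrp2 was 0.43 in SNU-6625 and -0.46 in SNU-6624. In resistant against parental libraries it was 2.09 in SNU-6625 and -0.29 in SNU-6624 for Nrp2, 1.26 and -0.25 for Nrp1, and 0.70 and -0.47 for Pdgfb. Pgf was at 0 counts in resistant SNU-6625, with an upper interval end of -2.26 on the log2 scale that includes the counting error of the parental count, while resistant SNU-6624 had 29 counts against 18 in its parental library. In resistant against lenvatinib libraries Pdgfa had -0.066 in SNU-6625, whose interval ended just below 0, and 0.30 in SNU-6624, but with effective library sizes by TMM the value of SNU-6625 was 0.25.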

How the results depend on the processing

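In lenvatinib against parental libraries 2 members were called. This was 1 without line as a block (no replicate block), by library size only and without a filter, 4 by DESeq2, 6 with only the 4 libraries compared, and 0 to 6 with each library left out, 0 without any lenvatinib or parental library and 6 without either resistant library. In resistant against parental libraries the 0 called members became 1 by DESeq2, and 0 to 6 with each library left out, the 6 coming without resistant SNU-6624. In resistant against lenvatinib libraries the 2 called became 1 with only the 4 libraries compared and without a filter, 4 by DESeq2, and 0 to 6 with each library left out. Where a group kept 1 library, that library was assumed to vary like the others. Over all genes, calls ran from 0 to 7942, 0 to 5819 and 0 to 6286 in these comparisons, beside 985, 0 and 1061, and the pairing check was passed by all 3 pairs of groups, so the fit with the block was kept. Scaling by library size alone moved the median log2 fold change of all genes in resistant against lenvatinib libraries to -0.14, beside 0.02. The 6 members at 10 CPM or more in all 4 lines kept that number under TMM scaling.

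Of the fitted values, 414 kept direction and side of the threshold. With the direction kept, 32 became called and 22 lost their call. The other 14 reversed, all of members not called in the comparison concerned, and the cause was not tested. With all 8 libraries, Pdgfa had -0.21 in lenvatinib against parental, and Fgfbp1 0.088 and Nrp1 -0.17 in resistant against parental. With each library left out, values in lenvatinib against parental ran from -0.70 to 0.23 for Pdgfb and from -0.89 to 0.83 for Nrp2, both positive without parental SNU-6624. In resistant against parental they ran from -7.19 to 0.91 for Pgf, from -0.38 to 0.77 for Pdgfb, from -0.18 to 1.34 for Nrp1 and from -0.12 to 2.05 for Nrp2, each changing sign without resistant SNU-6625, and Pgf (0.82) and Pdgfb (-0.24) also without parental SNU-6625. In resistant against lenvatinib they ran from -0.049 to 8.04 for Pgf, negative without resistant SNU-6624, and from -0.13 to 1.04 for Pdgfb and from -0.023 to 2.17 for Nrp2, negative without resistant SNU-6625. Fitted values of Pgf rest on groups at 0 counts and are no measure of size. Within lines, TMM scaling left 24 log2 ratios inside their counting interval and moved 23 outside it. Another 2, whose interval excluded 0, changed sign. Both were of Pdgfa, which turned to -0.0031 in SNU-6624 (lenvatinib against parental) and 0.25 in SNU-6625 (resistant against lenvatinib). Pgf could not be tested with a minimum of 1 CPM. Depth limits the values of Pgf and Vegfc, which are near the floor.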
